A study of Homo sapiens with 20 samples.

Results

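The 53 genes described here encode the machinery of G2 and mitosis: cyclins and mitotic kinases, the spindle assembly checkpoint, the kinetochore, the chromosomal passenger complex, the proteins that start anaphase, kinesin motors, condensin and other chromosome proteins, and the proteins of the spindle and of cytokinesis. They were listed by gene symbol for their role in mitosis, with earlier results of these data known, and the list uses no measured difference between days. For each symbol, the protein-coding record with the highest mean over the course was kept. All 53 had a record, among 20237 coding records and 38369 records in all. The RNA-Seq libraries were made from polyadenylated RNA of neural progenitors that had been derived from the human embryonic stem cell line H1, a long-established line. Differentiation began at day 0 with the withdrawal of FGF, a mitogen for such progenitors, and the addition of the neurotrophin BDNF, and every later group had this treatment. Samples taken without replating were at days 0, 1, 2 and 4 (3 cultures each), and samples taken after it were at day 5 (2 cultures), day 11 and day 18 (3 cultures each), 20 in all. The replating, at day 4, moved the cells onto wells coated with poly-D-lysine and laminin, and day 5 is the first group on that surface. The cultures all come from 1 cell line, and day 0 is the only group before BDNF.

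A cell that enters mitosis first builds up A-type and B-type cyclins, which activate a cyclin-dependent kinase together with the Polo and Aurora kinases. The chromosomes are then packed by condensin, attached to spindle microtubules at their kinetochores and checked for attachment, before the anaphase-promoting complex marks cyclin B and securin for destruction and the sister chromatids part. Many of these genes are transcribed late in the cell cycle, under the control of B-MYB and FOXM1 together with the MuvB core complex, and are shut down in resting cells by the DREAM complex, which holds MuvB and a pocket protein. Neural progenitors divide, whereas neurons do not, so the transcripts of these genes are often read as marks of dividing cells. In bulk RNA, fewer dividing cells and less RNA per cell cannot be told apart.

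The deposited values are FPKM, that is fragments scaled to the length of the transcript and to the number of mapped fragments, so levels of different genes can be set side by side. Each record has 1 value per day, pooled over the cultures of that day. No value of a single culture was used here, so no spread between cultures, no interval and no test could be given, and the depth behind each value is unknown. Each comparison below is therefore a description of pooled estimates. Where 7 values stand in a row, they are in order of time, first the days without replating (0, 1, 2 and 4) and then those after it (5, 11 and 18). A relative log2 change is the difference in log2(FPKM + 0.1) between 2 days minus the median difference of the 11793 coding records with a mean of at least 1 FPKM. That median was -0.11 from day 0 to day 1, 0.04, 0 and -0.07 at the next 3 steps, -0.16 between days 5 and 11 and -0.28 in the last week, and it came to -0.60 over the whole course. A gene is called lower or higher where its relative log2 change is at least 1, that is 2-fold, in size. All 53 genes passed the level of 1 FPKM.

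All 53 genes had their highest FPKM at day 0 and their lowest at day 18, against 44.8% and 66.0% of the expressed coding records. Their summed FPKM over the 7 days was 2501, 1381, 1335, 1283, 995, 1101 and 446. As a share of the FPKM of all coding records, the sum was 0.70% at day 0, between 0.33% and 0.45% from day 1 to day 11, and 0.21% at day 18. The median gene kept 55.5%, 54.3%, 50.5%, 39.0%, 42.4% and 17.1% of its day 0 FPKM over the 6 later days. For the expressed coding records these medians were 92.7%, 96.2%, 95.2%, 90.3%, 79.6% and 65.6%. At day 18 the genes ranged from 9.99% of the day 0 FPKM for ANLN to 38.8% for BUB3, and 51 of 53 were under a level of 25% (BUB3 and KIF15 were not), as were 7.25% of the expressed coding records. The larger differences between neighbouring days thus lay at both ends of the course, in the first day and between day 11 and day 18.

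**Figure D1:**
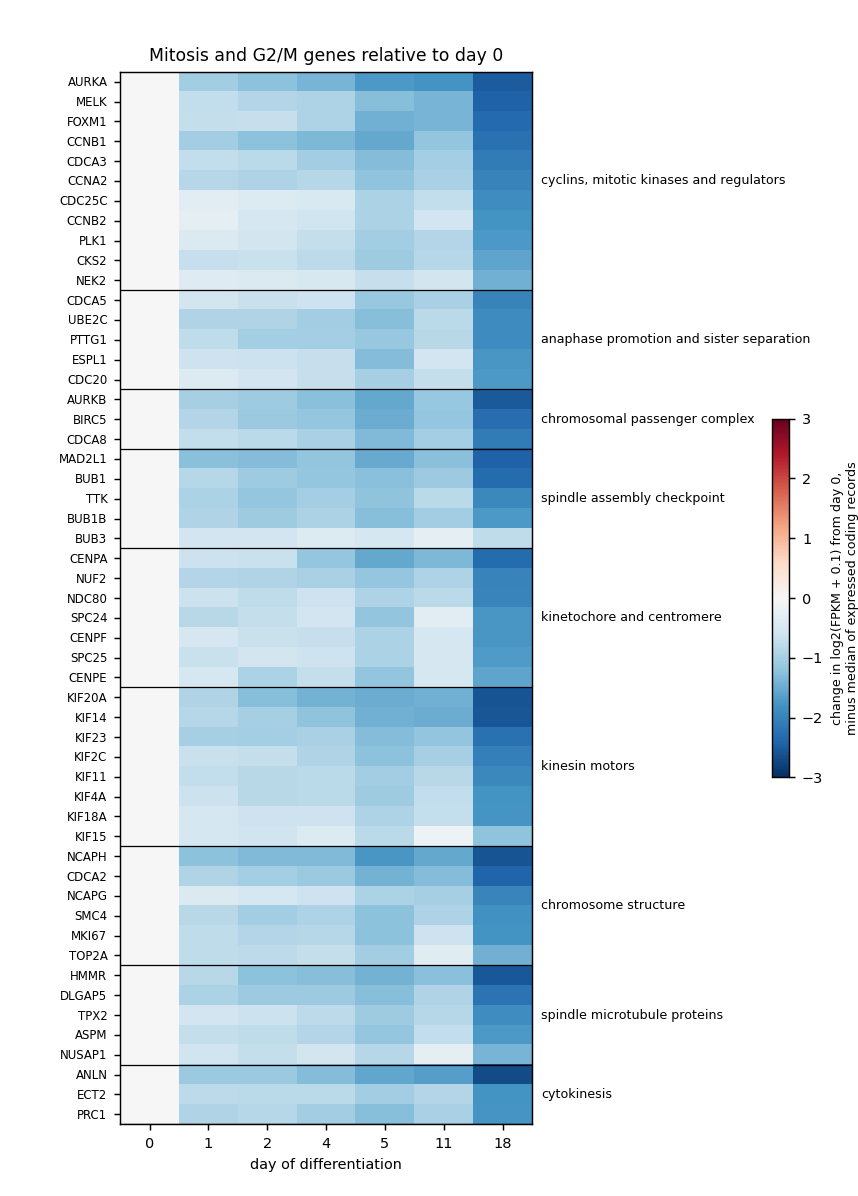
Relative log2 change of each of the 53 genes from day 0 (rows, grouped by role and ordered within a role by the change at day 18) at each day of differentiation (columns). Blue is lower and red is higher than day 0 on a scale from -3 to 3, and every cell after day 0 is on the blue side, from -0.15 for KIF15 at day 11 to -2.68 for ANLN at day 18.

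From day 0 to day 1, the day after FGF was withdrawn, every gene was lower. The median relative log2 change was -0.74, with a range from -1.26 for MAD2L1 to -0.27 for CCNB2. Of the 53 genes, 6 were lower by at least 2-fold (MAD2L1, NCAPH, ANLN, AURKA, CCNB1 and AURKB), beside 2.09% of the expressed coding records. As deposited, without the median taken off, 14 genes passed 2-fold, beside 3.09%. With days scaled to equal coding totals 2 did, a setting for which no background share was computed. In size the differences of single genes were moderate, and 26 of the 53 lay under the 5th percentile of the expressed records, -0.75. None of the 53 was listed higher at day 1 than at day 0, whereas 40.3% of the expressed records were.

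The set moved little over the next 2 steps. Its median relative log2 change was -0.09 between days 1 and 2 and -0.07 between days 2 and 4. No gene was lower or higher by at least 2-fold at either step, beside 0.161% and 0.653% of the expressed records lower and 0.11% and 0.127% higher. As deposited, 18 genes were listed higher at day 2 than at day 1, beside 61.8% of the expressed records. At day 4, 17 were listed higher than at day 2, beside 50.0%. Relative to the median of the expressed records, 45 of 53 genes were lower at the former step and 36 at the latter. The lowest relative log2 changes were -0.41 for CENPE at the former step and -0.50 for CENPA at the latter. Taken from day 0, 17 genes were lower by at least 2-fold at day 2 (background 3.49%) and 19 at day 4 (background 4.66%).

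Across the replating, between day 4 and day 5, all 53 genes were lower again, by small amounts. The median relative log2 change was -0.31, from -0.59 for SPC24 to -0.08 for KIF20A, and none was lower by at least 2-fold, beside 0.0424% of the expressed records. Differences were small for most records at this step, and 25 of the 53 genes lay under the 5th percentile of the expressed records, -0.31. The day 5 values rest on 2 cultures, and the change of plate and the time in BDNF cannot be told apart at this step. Against day 0, 41 genes were lower by at least 2-fold at day 5 (background 5.11%).

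Between day 5 and day 11 most of the set was level or slightly higher, from day 5 values that were lower than those of day 4. Its median relative log2 change was 0.23, 48 of 53 genes were above the median of the expressed records, and none was called in either direction, beside 3.05% of those records lower and 2.67% higher. As deposited, 36 genes were listed higher and 17 lower, with a median ratio of 1.05, while 28.7% of the expressed records were listed higher. The median log2 change was 0.07 as deposited, and with day 4 in place of day 5, which rests on 2 cultures (an alternative chosen after seeing the data), the median relative log2 change to day 11 was -0.02. SPC24 was at the top with a relative log2 change of 0.81, followed by ESPL1, TOP2A, CENPE and KIF15 between 0.63 and 0.69. MELK was at the bottom with -0.14, and AURKA, ANLN, NCAPG and KIF14 were the other genes under 0. Against day 0, the number lower by at least 2-fold was 20 at day 11 (background 8.3%), or 41 as deposited (background 15.3%).

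In the last week, from day 11, every gene was lower again, with a larger median than in the first day. On the relative log2 scale the median was -1.06, from -1.40 for SPC24 to -0.49 for BUB3, and 40 of 53 genes were lower by at least 2-fold, beside 1.41% of the expressed records. As deposited, 50 genes passed 2-fold, beside 3.72%. With a pseudocount of 1 in place of 0.1 the count was 19, a setting for which no background share was computed. The 13 genes within 2-fold were ASPM, NCAPG, CENPA, FOXM1, ECT2, NEK2, SMC4, PLK1, PRC1, CKS2, BUB1B, AURKA and BUB3. Of the 53, 52 lay under the 5th percentile of the expressed records, -0.62. Across the 53 genes, the relative log2 changes of the first day and of the last week had a Pearson correlation of 0.0915, given as a description, since the genes share the libraries of these days.

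Over the whole course, from day 0 to day 18, 52 of 53 genes were lower by at least 2-fold, beside 12.1% of the expressed coding records, and BUB3 was within 2-fold. As deposited, all 53 passed, beside 29.9%. Their median relative log2 change was -1.94, from -2.68 for ANLN to -0.76 for BUB3, and the median was -2.53 as deposited. Of the 52 genes called lower, KIF15 with -1.21, NUSAP1 with -1.40 and TOP2A with -1.43 had the smallest changes.

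**Figure D2:**
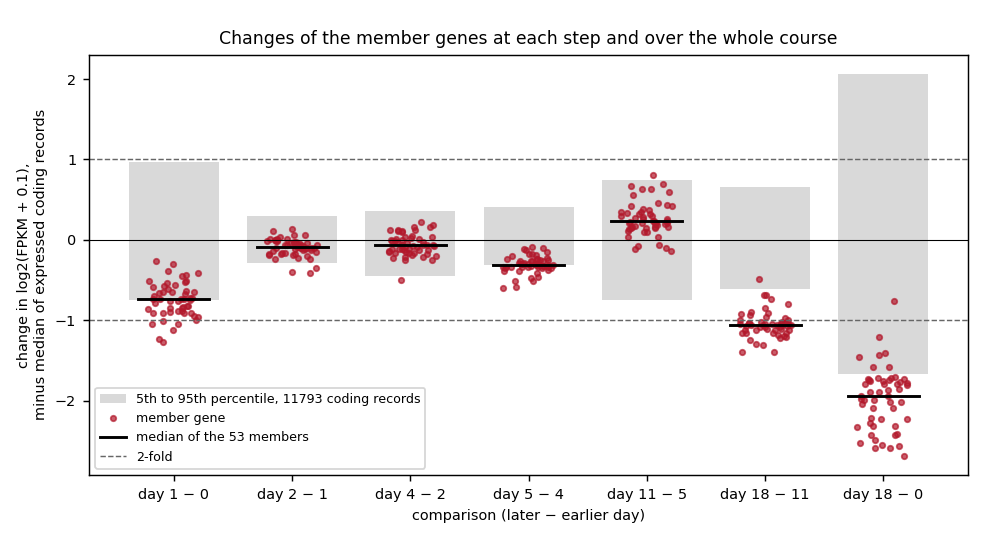
Relative log2 change of each gene (points) at the 6 steps between neighbouring days and over the whole course, with the median of the 53 genes (black bar) and the 5th to 95th percentile of 11793 expressed coding records (grey). The genes lie around the lower edge of the grey range at day 1 minus day 0 (26 of 53 under it), mostly within it at day 2 minus day 1, day 4 minus day 2 and day 11 minus day 5, around its lower edge again at day 5 minus day 4 (25 of 53 under it), and below it at day 18 minus day 11, where 52 of 53 are under its lower edge of -0.62.

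Promoter sequences are shown next because late cell cycle promoters are known for a pair of short elements, a CHR element (cell cycle genes homology region) close to the start of transcription, which the MuvB core binds, and CCAAT boxes bound by NF-Y further upstream. RefSeq promoter windows of build GRCh38.p14, from 250 bases before to 50 bases after a start, were matched by symbol for 45 of the 53 genes, with 52 windows in all. AURKA, BUB3, TTK, TPX2, BIRC5, CDCA2, UBE2C and FOXM1 had no entry. The letters searched were TTTGAA or TTCGAA for the CHR element and CCAAT for the CCAAT box, on both strands, so that TTCAAA and ATTGG also count, and matches that share bases were kept. The following 6 examples give the 120 bases that end just before the start, 5′ to 3′ on the strand of the gene, with matches in capitals. They were chosen with the values known. CCNB2, PLK1 and KIF11 show a CHR element close to the start with a CCAAT box further upstream. MKI67 shows a double CHR element, ANLN is the gene with the lowest day 18 share, and AURKB has no match in this stretch.
CCNB2: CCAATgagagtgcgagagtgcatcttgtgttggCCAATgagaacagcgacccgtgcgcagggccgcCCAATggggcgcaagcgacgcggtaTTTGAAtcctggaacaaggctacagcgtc
PLK1: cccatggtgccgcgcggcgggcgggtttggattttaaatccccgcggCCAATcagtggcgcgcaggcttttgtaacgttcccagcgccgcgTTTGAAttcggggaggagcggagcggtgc
KIF11: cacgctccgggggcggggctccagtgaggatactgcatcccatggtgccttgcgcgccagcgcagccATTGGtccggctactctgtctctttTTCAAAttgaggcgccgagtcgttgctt
MKI67: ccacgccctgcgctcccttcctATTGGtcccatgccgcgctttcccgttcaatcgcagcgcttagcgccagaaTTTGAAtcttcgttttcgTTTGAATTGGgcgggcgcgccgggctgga
ANLN: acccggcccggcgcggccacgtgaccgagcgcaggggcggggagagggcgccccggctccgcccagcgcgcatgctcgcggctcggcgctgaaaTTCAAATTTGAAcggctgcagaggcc
AURKB: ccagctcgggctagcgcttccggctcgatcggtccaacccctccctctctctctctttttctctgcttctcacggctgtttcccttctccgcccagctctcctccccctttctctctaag
The positions in GRCh38.p14 are chr15:59105026-59105145 for CCNB2, chr16:23678769-23678888 for PLK1, chr10:92593010-92593129 for KIF11 and chr7:36389742-36389861 for ANLN, all on the plus strand, and chr10:128126424-128126543 for MKI67 and chr17:8210226-8210345 for AURKB on the minus strand. In CCNB2, CCAAT boxes begin 120, 87 and 54 bases before the start and a CHR element 29 bases before it. PLK1 has a CCAAT box at 73 and a CHR element at 29, and KIF11 has both on the opposite strand, at 53 and 28. MKI67 has CHR elements at 47 and 29, the latter overlapping an ATTGG at 24, and another ATTGG at 98. ANLN has CHR matches on either strand at 26 and 20 and no CCAAT box in these bases.

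A CHR element was found in 36 of the 52 promoters (69.2%), against 12.0% of the 12794 promoters of expressed coding records and 16.4% of all 35116 promoters of the table. A CCAAT box was found in 37 (71.2%), against 34.8% and 34.6%, and both elements in 27 (51.9%), against 4.92% and 6.38%. The CHR matches gathered close to the start: 21 promoters (40.4%) had a match beginning within 50 bases before it, a window set after the positions had been seen, against 2.02% and 2.73%. CCAAT boxes peaked further upstream, with 44.2% of the promoters holding a match that begins 75 to 51 bases before the start, against 9.4% of promoters of other expressed genes. Among genes of other lists, described below, a CHR element was in 59.7% of 62 promoters of other mitotic genes and in 6.98% of 43 promoters of DNA replication and G1/S genes, whereas CCAAT boxes were in 67.7% and 60.5%. Within the set, the median relative log2 change from day 0 to day 18 was -1.80 for 34 genes with a CHR match and -2.04 for 11 without. CENPE, KIF2C and MELK, with no match to the letters searched for either element, were at -1.58, -2.04 and -2.42. Other forms of the elements were not searched. A match is a run of letters in a window and was not tested for binding in these cells.

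**Figure D3:**
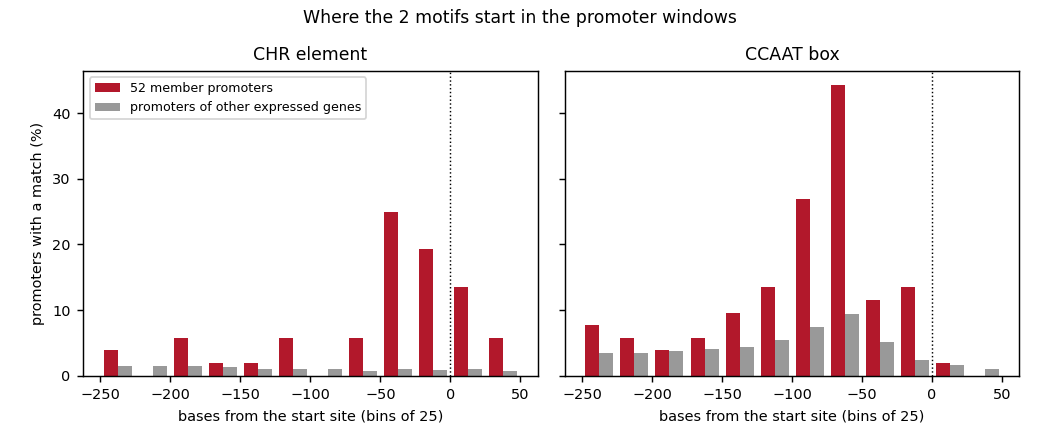
Share of promoters (percent) in which a CHR element or a CCAAT box begins in each bin of 25 bases, against the distance from the RefSeq start site, for 52 promoters of the mitotic genes (red) and for promoters of other expressed genes (grey). The red bars for the CHR element reach 25% just upstream of the start and those for the CCAAT box 44.2% between 75 and 51 bases upstream.

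The cyclins, mitotic kinases and their regulators, 11 genes, had a median relative log2 change of -2.01 from day 0 to day 18. CCNB1 encodes cyclin B1, whose kinase drives entry into mitosis (chr5:68462913-68474066, plus strand in hg19, the build of all record positions given below). Its FPKM was 145, 65.3, 59.5, 54.6, 44.96, 50.6 and 20.3 over the 7 days, so that more than 50% of the day 0 value was gone at day 1. CCNA2, the cyclin of S and G2 phase (chr4:122737600-122745088, minus strand), had 55.9, 28.8, 28.4, 29.2, 21.8, 22.6 and 9.07 FPKM. CCNA2 was close to level from day 1 to day 4, between 28.4 and 29.2 FPKM. CCNB2, the sister gene of CCNB1 (chr15:59397320-59417243, plus strand), had 69.01, 53.2, 46.6, 43.1, 32.4, 36.99 and 13.1 FPKM. It had the smallest difference of the whole set in the first day, a relative log2 change of -0.27 against -1.04 for CCNB1, and by day 18 both cyclins had come down to 19.03% and 14.04% of day 0. PLK1, the Polo kinase that acts from centrosome maturation to cytokinesis (chr16:23690201-23701688, plus strand), had 71.6, 48.9, 46.7, 41.8, 31.3, 31.2 and 14.3 FPKM. AURKA, the Aurora kinase of the spindle poles (chr20:54944445-54967351, minus strand), had 30.9, 13.8, 12.6, 11.2, 8.43, 6.98 and 3.55 FPKM. AURKA had the lowest relative log2 change of this group over the course, -2.49, and it was lower at each of the 6 steps, including the one from day 5 to day 11. FOXM1, the transcription factor of late cell cycle genes (chr12:2966850-2986303, minus strand), had 51.3, 28.9, 30.5, 25.5, 16.97, 15.6 and 6.68 FPKM, and CKS2, a small cyclin-dependent kinase subunit (chr9:91926113-91931617, plus strand), had 105, 59.8, 64.002, 57.9, 45.3, 46.6 and 23.2 FPKM. NEK2, a kinase of centrosome separation (chr1:211836115-211848967, minus strand), had 16.1, 11.4, 11.5, 10.9, 8.89, 8.77 and 3.81 FPKM and the smallest difference of the group over the course, -1.45 on the relative log2 scale. The others were CDC25C, the phosphatase that activates the mitotic kinase, at 17.5% of its day 0 FPKM at day 18, CDCA3 at 15.2% and the kinase MELK at 12.04%. CDK1, the kinase partner of cyclins A and B, was not analysed here.

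**Figure D4:**
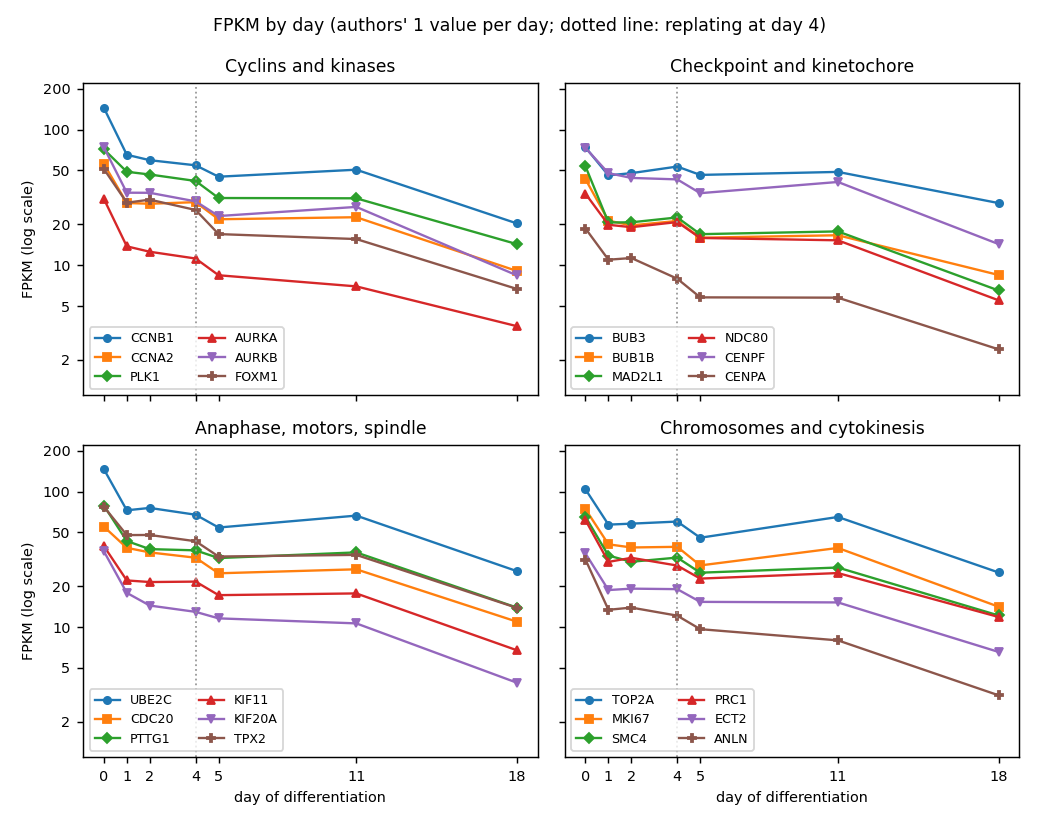
FPKM (log axis) of 24 of the genes by day of differentiation in 4 groups of roles, with 1 pooled value per day and a dotted line at the replating on day 4. Every line drops in the first day and in the last week. TOP2A and MKI67 are higher at day 11 than at day 5, while AURKA, ANLN and KIF20A are lower.

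Of the genes of anaphase promotion and sister separation, 5 in number, the median relative log2 change over the course was -1.89, and the group was tight, from -2.01 for CDCA5 to -1.72 for CDC20. UBE2C, the ubiquitin-conjugating enzyme that works with the anaphase-promoting complex (chr20:44441255-44445594, plus strand), had the highest FPKM of all 53 genes at day 0, with 146, 72.7, 75.7, 67.5, 54.3, 66.5 and 25.9 over the 7 days. CDC20, the activator of that complex in mitosis (chr1:43824626-43828871, plus strand), had 55.1, 38.5, 35.6, 32.5, 24.96, 26.7 and 10.97 FPKM. PTTG1, which encodes securin, the inhibitor of separase (chr5:159848865-159855745, plus strand), had 78.9, 43.2, 37.6, 36.8, 32.3, 35.6 and 13.9 FPKM. ESPL1, which encodes separase, the target of securin, had 8.17, 5.12 and 7.44 FPKM at days 4, 5 and 11, a deeper dip at day 5 than that of PTTG1. CDCA5, which encodes sororin, the protector of cohesin (chr11:64844927-64851615, minus strand), had 43.3, 27.3, 26.1, 26.8, 17.8, 17.6 and 7.01 FPKM.

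The chromosomal passenger complex corrects wrong attachments of chromosomes to the spindle, and its 3 members in the set had the lowest median of any group over the course, a relative log2 change of -2.28. AURKB, its kinase (chr17:8108050-8113883, minus strand), had 74.1, 34.3, 34.2, 29.6, 23.1, 26.9 and 8.41 FPKM. BIRC5, which encodes survivin (chr17:76210277-76221715, plus strand), had 61.9, 31.1, 27.5, 26.2, 19.7, 22.03 and 8.34 FPKM, and CDCA8, which encodes borealin (chr1:38158159-38175389, plus strand), had 45.3, 25.3, 24.99, 22.04, 16.4, 17.7 and 6.92. AURKB and BIRC5 had under 51% of their day 0 FPKM at day 1, and all 3 were higher at day 11 than at day 5. AURKB had the lowest relative log2 change of the group, -2.52, and CDCA8 the highest, -2.10. The INCENP record, the scaffold of the complex and not a member of the set, was at -1.62.

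The spindle assembly checkpoint holds back anaphase until every kinetochore is attached. Its 5 genes had the widest range of any group over the course, from -2.42 for MAD2L1 to -0.76 for BUB3 on the relative log2 scale, with a median of -1.94. MAD2L1, which encodes MAD2 (chr4:120980579-120988013, minus strand), had 53.6, 20.7, 20.7, 22.5, 16.9, 17.8 and 6.51 FPKM, and it had the largest relative difference of all 53 genes in the first day. BUB3, a WD-repeat protein that brings BUB1 and BUBR1 to the kinetochore (chr10:124913760-124924886, plus strand), had 73.99, 45.98, 47.8, 53.4, 46.3, 48.8 and 28.7 FPKM. BUB3 was higher at day 4 than at day 1 and kept over 60% of its day 0 FPKM up to day 11, and at day 18 it had the highest FPKM of the set. BUB1B, which encodes BUBR1 (chr15:40453210-40569687, plus strand), had 43.1, 21.3, 19.7, 21.2, 15.95, 16.6 and 8.48 FPKM, on a record that also carries the symbol of the neighbouring gene PAK6. The kinases BUB1 and TTK were at 13.05% and 16.9% of their day 0 FPKM at day 18.

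The 7 genes of the kinetochore and centromere had a median relative log2 change of -1.75 over the course, the highest median of any group. NDC80, which couples kinetochores to microtubules (chr18:2571510-2616633, plus strand), had 33.7, 19.9, 19.1, 20.8, 15.9, 15.3 and 5.51 FPKM. CENPF, a large protein of the outer kinetochore and nuclear matrix (chr1:214776532-214837912, plus strand), had 73.3, 47.8, 44.04, 42.95, 33.99, 41.1 and 14.3 FPKM. CENPA, the histone H3 variant that marks centromeres (chr2:27008882-27023932, plus strand), had 18.7, 10.98, 11.3, 7.95, 5.79, 5.76 and 2.397 FPKM. CENPA was the lowest of the group over the course, -2.31, and between day 2 and day 4 its relative log2 change was -0.50, against 0.13 for NDC80 and -0.04 for CENPF. CENPE, the kinetochore motor that moves chromosomes to the metaphase plate (chr4:104026963-104119566, minus strand), had 34.5, 22.02, 17.1, 19.9, 13.7, 19.03 and 7.56 FPKM. It was the highest of the group over the course, -1.58, and it was higher at day 4 than at day 2 and higher at day 11 than at day 5. The other 3 subunits of the NDC80 complex, NUF2, SPC24 and SPC25, were at 16.3%, 19.2% and 19.8% of day 0 at day 18, beside 16.4% for NDC80. Within that complex SPC24 stood out at day 11, with 10.7 FPKM against 6.78 at day 5, whereas NDC80 had 15.3 against 15.9.

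The kinesins of the set are 8 motors of the spindle and midzone, with a median relative log2 change of -1.99 over the course. KIF11, the motor that pushes spindle poles apart (chr10:94352825-94415150, plus strand), had 39.6, 22.1, 21.5, 21.7, 17.2, 17.7 and 6.75 FPKM. KIF15, which can share that task (chr3:44803209-44894746, plus strand), had 12.5, 8.04, 7.89, 8.96, 6.47, 8.98 and 3.51 FPKM. These motors differed at day 11, where KIF15 had a relative log2 change from day 0 of -0.15, the smallest of the whole set, and KIF11 one of -0.83. KIF20A, a motor of the central spindle and cytokinesis (chr5:137514417-137523403, plus strand), had 36.3, 17.9, 14.4, 12.96, 11.6, 10.7 and 3.89 FPKM, the lowest relative change of the group over the course at -2.59. KIF14, another motor of cytokinesis, was close to it at -2.56, and at 1.21 FPKM it had the lowest day 18 level of the set. KIF23, KIF4A, KIF18A and KIF2C were at -2.23, -1.79, -1.76 and -2.04.

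Among the 6 genes of chromosome structure, the median relative log2 change over the course was -1.89. TOP2A, the topoisomerase that untangles sister chromatids (chr17:38544798-38574169, minus strand), had 104, 57.03, 57.98, 60.1, 45.6, 64.9 and 25.3 FPKM, and MKI67, which encodes the surface protein of mitotic chromosomes known as the Ki-67 antigen (chr10:129894927-129924468, minus strand), had 74.2, 40.8, 38.7, 39.1, 28.5, 38.4 and 14.2. Both had more RNA at day 11 than at day 5, and TOP2A exceeded its day 1 value at day 11. Condensin compacts chromosomes, and 3 of its subunits are in the set. NCAPH (chr2:97001484-97041274, plus strand) had 34.7, 13.7, 13.3, 13.1, 9.32, 9.47 and 3.72 FPKM, the lowest relative log2 change of the group at -2.59, and SMC4, the shared core subunit (chr3:160117430-160152739, plus strand), had 65.1, 33.7, 30.4, 32.6, 25.2, 27.5 and 12.2 FPKM. At the step where TOP2A and MKI67 came up, NCAPG had 16.6 FPKM at day 5 and 14.02 at day 11, and NCAPH was level. TOP2A had the highest relative change of the group, -1.43, and CDCA2, a phosphatase targeting subunit on chromosomes, was at -2.41.

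The spindle microtubule proteins, 5 genes, had a median relative log2 change of -1.87 over the course. TPX2, which activates Aurora A and nucleates microtubules (chr20:30326904-30389603, plus strand), had 77.3, 47.7, 47.8, 43.01, 33.2, 34.1 and 13.9 FPKM. ASPM, a spindle pole protein whose loss causes small brain size in humans (chr1:197053258-197115824, minus strand), had 20.4, 11.4, 11.5, 10.6, 8.14, 9.74 and 3.97 FPKM. HMMR, a spindle-associated protein also known as RHAMM (chr5:162887517-162918949, plus strand), had 22.5, 11.8, 9.21, 8.84, 7.58, 7.46 and 2.45 FPKM. HMMR was the lowest of this group, -2.55, and between day 1 and day 2 its relative log2 change was -0.39, against -0.04 for TPX2 and -0.03 for ASPM. NUSAP1, which bundles spindle microtubules (chr15:41624892-41673247, plus strand), had 74.7, 45.6, 43.6, 48.6, 37.6, 49.3 and 18.6 FPKM and was the highest, -1.40, with more FPKM at day 11 than at day 1. DLGAP5 was at -2.21.

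The last group, cytokinesis, has 3 genes, with a median relative log2 change of -1.80 over the course. PRC1 bundles the microtubules of the spindle midzone (chr15:91509274-91537804, minus strand), and its FPKM was 61.6, 30.3, 32.5, 28.4, 22.8, 25.1 and 11.9. ECT2, the exchange factor that activates RhoA at the cleavage site (chr3:172468532-172539263, plus strand), had 34.9, 18.8, 19.2, 19.1, 15.4, 15.2 and 6.56 FPKM. ANLN, which encodes anillin, the scaffold of the contractile ring (chr7:36429432-36493398, plus strand), had 31.5, 13.4, 13.9, 12.2, 9.66, 7.99 and 3.14 FPKM. ANLN was at 42.6% of day 0 at day 1 and at 9.99% at day 18, the lowest share of the set, while ECT2 and PRC1 were at 18.8% and 19.3%.

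Other cell cycle genes were taken from lists that share no record with the 53 genes. Of 63 further mitotic genes on a list, 60 had a record and all 60 passed the level of 1 FPKM. Of these, 7 were lower by at least 2-fold in the first day, 18 in the last week and 49 over the whole course, beside the 2.09%, 1.41% and 12.1% of expressed records, and none was higher. Their median relative log2 changes were -0.70, -0.83 and -1.71. TRIP13, the ATPase that takes MAD2 out of its closed form, was the lowest with 29.9, 9.11, 8.96, 8.96, 6.93, 6.55 and 2.79 FPKM, which left it 9.34% of day 0. CENPT, of the inner kinetochore, was the highest with 20.6, 18.9, 21.5, 18.8, 18.5, 16.3 and 12.3 FPKM. DNA replication and G1/S genes, 38 on the list and all expressed, gave 2 (CDC6 and RRM2), 5 (CDC45, GINS2, RRM2, TK1 and E2F2) and 37 lower calls at the same comparisons and medians of -0.64, -0.83 and -1.76. TK1, the thymidine kinase of S phase, was the lowest of these with 37.02, 19.4, 19.1, 20.2, 11.5, 10.5 and 3.73 FPKM, and PRIM1, a primase subunit, the highest with 16.1, 15.02, 13.4, 16.2, 9.44, 9.24 and 5.48. Between day 2 and day 4 the replication list had a median of 0.28 and the 53 genes one of -0.07, and across the replating the medians were -0.55 and -0.31. From day 0 to day 5 the lists were close, at -1.09 and -1.21.

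Mitosis needs complexes that cells also use outside it, and the medians of their genes were closer to 0. Of 14 core subunits and cofactors of the anaphase-promoting complex, 2 were lower by at least 2-fold over the whole course (UBE2S and ANAPC1), a share close to the 12.1% of expressed records, and the median relative log2 change was -0.43. UBE2S, its chain-elongating enzyme, was the lowest with 109, 66.5, 69.2, 56.8, 47.99, 43.5 and 29.1 FPKM, and ANAPC2, a catalytic core subunit, the highest with 15.02, 14.7, 14.4, 14.2, 14.6, 13.5 and 10.1. Of 9 cohesin subunits and regulators none was lower by at least 2-fold, beside the same 12.1%, with a median of -0.37. SMC1A, a core cohesin subunit, had 40.7, 27.5, 26.8, 28.8, 23.1, 22.5 and 14.7 FPKM and NIPBL, the cohesin loader, 16.3, 16.9, 17.1, 18.1, 17.8, 17.7 and 13.9.

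The D cyclins, their kinases and the CDK inhibitors are 12 genes that set the entry into the cycle. Over the whole course 2 were lower and 2 higher by at least 2-fold, beside 12.1% and 14.7% of the expressed records, shares close to the background, with a median relative log2 change of -0.35. The genes called lower were CDK4, the kinase of the D cyclins, at -1.26, and CCND3. CCND3, a D-type cyclin, had 28.2, 14.3, 12.8, 10.9, 9.22, 7.97 and 6.45 FPKM. The inhibitor CDKN1C, which encodes p57, had 8.22, 16.6, 18.9, 20.7, 29.6, 49.4 and 28.4 FPKM, the highest change of the list at 2.37, and it was already called higher at day 1, beside 4.66% of the expressed records. CDKN2D, which encodes p19, was the other gene called higher, at 2.14. The transcription factors of these promoters, 21 genes of the E2F, pocket protein, MuvB, MYB and NF-Y families, gave 8 lower and 0 higher calls, beside the same shares, with a median of -0.55. E2F7, a repressor of the E2F family, was the lowest with 17.9, 9.25, 9.86, 7.97, 6.097, 5.59 and 2.43 FPKM. RBL2, which encodes the pocket protein p130 of the DREAM complex, was the highest with 8.37, 8.96, 10.2, 9.999, 10.4, 9.52 and 8.39. MYBL2, which encodes B-MYB, was at -2.11 over the course, within the range of the mitotic genes.

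**Figure D5:**
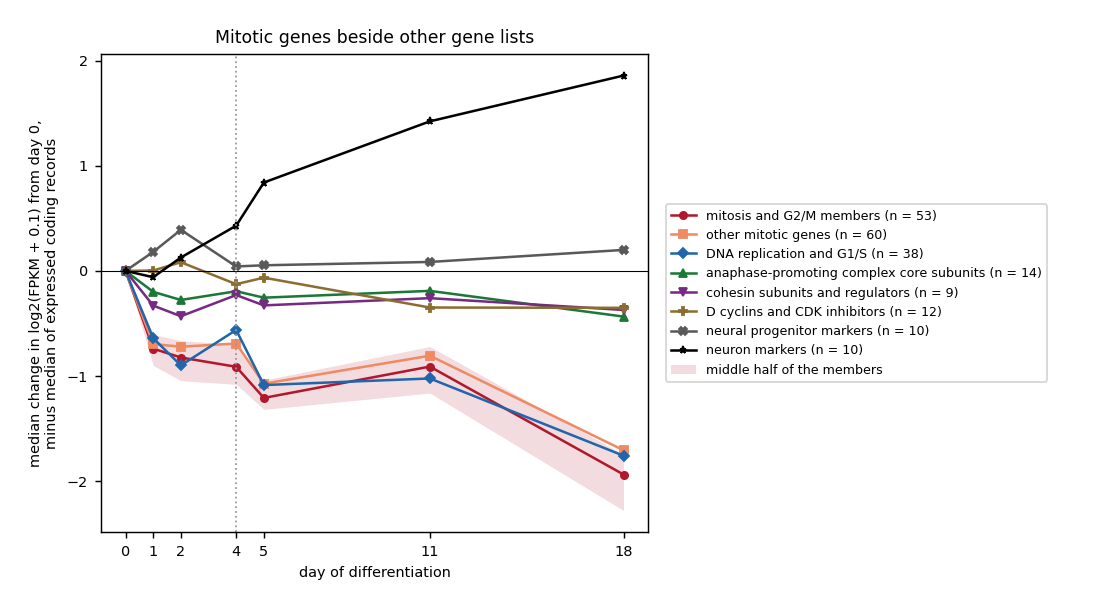
Median relative log2 change from day 0 of the 53 mitotic genes and of other gene lists at each day of differentiation, with the middle 50% of the mitotic genes shaded and a dotted line at the replating on day 4. The mitotic and the DNA replication lists end at -1.94, -1.71 and -1.76, the cohesin and APC/C lists at -0.37 and -0.43, and the neuron markers at 1.86.

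Markers of the cell types moved over the same days. Of 10 neuron markers, 6 were higher by at least 2-fold at day 18 than at day 0, beside 14.7% of the expressed records, and none was lower, with a median relative log2 change of 1.86. STMN2 was the highest with 32.3, 45.2, 68.1, 131, 238, 517 and 727 FPKM and NEFL the lowest with 153, 102, 124, 96.9, 140.2, 89.2 and 68.1. Of 10 neural progenitor markers, 0 were lower and 3 higher (PAX6, FABP7 and HES5), beside 12.1% and 14.7% of the expressed records. Their median relative log2 change was 0.20, from -0.91 for NES to 3.90 for HES5. Summed over these markers, the FPKM was 2101 on day 18 against 3887 on day 0. The FPKM of all coding records came to 216151 on day 18 against 358744 on day 0. As deposited, their median log2 change was -0.40, against -0.60 for the expressed coding records. SOX2, a defining marker of neural progenitors, had 126, 121, 133, 121, 121, 97.6 and 66.1 FPKM, with a relative log2 change of 0.05 in the first day and -0.34 over the course. Of the astrocyte markers, S100B had a relative log2 change of -0.42 over the course and SLC1A3 one of 2.55. GFAP, AQP4, OLIG1 and OLIG2 were near 0 on all days, with at most 0.342 FPKM. Of 6 pluripotency markers 2 passed (DPPA4 and LIN28B), both lower by at least 2-fold, beside 12.1% of the expressed records, and POU5F1 and NANOG were near 0, and TDGF1 and ZFP42 are listed at 0. Of 8 neural crest and mesenchymal markers 3 passed and 2 were lower (COL3A1 and PDGFRB), beside the same 12.1%, with COL3A1 at 238, 236, 162, 137, 122, 73.8 and 30.5 FPKM. The part of these shifts in the values of the mitotic genes was not tested.

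Other records share positions with some of these genes. For 34 of the 53 genes some exon bases lie in exons of a record on the other strand, and for 24 of them this is over 10% of the exon bases, mostly lincRNA records named as antisense to the gene. Counting by strand is not stated, so reads of such pairs cannot be told apart. The partner's mean FPKM was over 10% of the gene's own in 8 cases (CCNA2, CDC25C, NUF2, KIF20A, KIF2C, CDCA3, ANLN and NCAPG). The largest share was that of FAM53C, whose record averaged 23.5 FPKM, 365% of the mean of CDC25C. Next were CDC23 with 18.7 FPKM, 122% of the mean of KIF20A, and EXOSC9 with 26.1 FPKM, 93.3% of the mean of CCNA2. The authors' program gave its own test a status other than OK for NUF2 at 2 steps and for NUSAP1 at 4.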

How the data were processed

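Values were taken from the deposited FPKM table of the series. Per the labels and the study's methods, the authors aligned paired-end reads of polyadenylated RNA to hg19 with TopHat2, assembled and merged transcripts with Cufflinks, and estimated FPKM with Cuffdiff2 at default options (hg19 and TopHat2 are also in the submitters' processing notes); versions are not given in the sources used here. The deposited FPKM values hold 1 value per record and day, pooled by the authors over the cultures, and 0 columns hold the values of a single sample. Whole reads could not be recovered from them. The submitters removed 1 day 5 culture as an outlier. The deposited comparison table also holds the authors' log2 fold changes, scores of the test statistic, p-values and q-values for neighbouring days; these were not used, and only its record names, positions, strand and test status (columns of another kind, deposited as text) were read.

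Here, log2(FPKM + 0.1) was differenced between days and centred on the median of 11793 coding records with a mean of at least 1 FPKM. A difference on this scale understates changes of low genes. Calls were made at 2-fold, with no test. The design called for limma should single samples be found, and with none in the files it was not run. Calculations used Python 3.11.15, pandas 2.3.3 and numpy 2.4.6, with matplotlib 3.10.9 for figures, and the script was checked on simulated data. The 53 genes and all lists were chosen with earlier results of these data known. Named genes were a fixed selection per role, the lowest and highest of each role from day 0 to day 18, and the lowest and highest expressed record of each other list; SPC24, CDKN2D, MYBL2, SOX2, INCENP and other genes named beside these were added after their values had been seen. Promoter windows came from RefSeq, GRCh38.p14, and record positions from the deposited table, hg19. The count over the astrocyte and oligodendrocyte marker list is not reported here.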

Additional observations from a re-analysis of the deposited data

How the results depend on the processing

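No paired analysis was possible because the deposited values are 1 pooled FPKM per day. Limma, leaving out each replicate and a replicate block were not run, since 1 value per day leaves no samples to fit. Over 13 alternatives (3 of them chosen after seeing the data), 309 values were recomputed. Counts were compared as shares of the genes kept, and had to lie within 1.5 times the reported share. Medians had to keep their direction and lie within a fold of 1.5 on the linear scale. Of the 309 values, 290 did so, but part of this agreement was fixed in advance. No gene had more than 1 record, so the 27 values with records summed could not differ. Of the recomputed counts of higher genes, only 1 was above 0. The other values were 18 outside these bounds and 1 that was reversed. With day 4 in place of day 5, the median relative log2 change to day 11 was -0.0195 instead of 0.23. As deposited it was 0.07. As deposited, without the median taken off, the number of genes lower by at least 2-fold was 14 instead of 6 from day 0 to day 1 and 41 instead of 20 from day 0 to day 11, and the median log2 change from day 0 to day 18 was -2.53 instead of -1.94. With days scaled to equal coding totals, 2 genes were lower in the first day. With the median over all coding records above 0 FPKM, the counts were 14 in the first day and 36 from day 0 to day 11. A pseudocount of 1 left 19 of 40 genes lower from day 11 to day 18. At a fold of 1.5 the lower counts were 41 for day 0 to day 1, 2 for day 4 to day 5, 47 for day 0 to day 4 and 42 for day 0 to day 11, and 6 genes were higher from day 5 to day 11. At a fold of 4 they were 0 for day 0 to day 1, for day 11 to day 18, for day 0 to day 4 and for day 0 to day 11, and 22 for day 0 to day 18. Without the 24 genes that had over 10% of their exon bases overlapped on the other strand, 7 of 29 were lower from day 0 to day 11. Genes with a smaller overlap, such as CCNA2, KIF20A, ANLN and CDCA3, were kept in that count. Except as deposited, the share of expressed records was not computed at these alternative settings. Those counts therefore have no background to be read against. Apart from the fold itself, which moves a count by its construction, the cause was not tested. The depth behind the values is unknown, so what it limits cannot be given.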

Other observations

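The deposited tables also hold lincRNA records that are named after mitotic genes as their neighbours, and their levels can be set beside those of the genes. The highest, linc-BUB1-2 (chr2:111953766-112253442 in hg19, minus strand), had 136, 60.9, 75.8, 48.9, 45.8, 13.7 and 12.5 FPKM over the 7 days, so it was lowest at day 18 as BUB1 was, but was higher at day 2 than at day 1 and had most of its later decline between day 5 and day 11, a step at which BUB1 was level with 14.3 and 14.2 FPKM. BUB1 itself lies apart from that record, at chr2:111395411-111435684 (minus strand). linc-TTK-1 (chr6:80662560-80663738, plus strand) had 27.3, 23.9, 21.6, 21.96, 18.2, 18.03 and 20.1 FPKM, and linc-PLK1 (chr16:23681332-23684448, plus strand) had 13.3, 15.1, 14.5, 16.4, 14.97, 17.1 and 15.2. At day 18, TTK and PLK1 were at 16.9% and 19.98% of day 0.

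The highest record named as antisense to a mitotic gene, linc-KIF2C-AS, had 6.01, 4.87, 5.58, 6.09, 5.42, 5.19 and 3.77 FPKM, with its highest value at day 4 and its lowest at day 18. linc-FOXM1-AS had 2.28, 1.24, 1.15, 1.15, 1.15, 1.196 and 0.952 FPKM, and linc-CCNB1-AS, which overlaps exons of CCNB1, had 1.21, 0.424, 0.425, 0.509, 0.359, 0.448 and 0.233. The latter 2 were highest at day 0 and lowest at day 18, as FOXM1 and CCNB1 were, and whether reads of the genes enter these records was not tested.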
